A study of Mus musculus with 10 samples.

Results

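Tet3 knockout cells were set against wild-type cells on day 6 of neural differentiation, with 1 RNA library a side. Both came from mouse embryonic stem (ES) cells of the C57BL/6 background, grown in SFEB culture, in which ES cells form floating aggregates without serum and move towards neuroectoderm. The knockout line was made in-house from cells carrying floxed Tet3 alleles, whose floxed exon was cut out by Cre recombinase expressed transiently, per the labels. Genes entered the comparison when either library reached 1 RPKM (reads scaled by transcript length and library total), which kept 11586 of 21937 gene symbols. The measure was the knockout minus wild-type difference of log2(RPKM + 0.5), called "difference" from here on, and a gene was counted as higher or lower at 2-fold, a difference of 1 or more in size. The added 0.5 RPKM shrinks the differences of genes with low values. The whole table holds 10 libraries: wild type, Tet3 KO and Tet3 KO with Dkk on days 6 and 10 of SFEB culture, and control and Tet3-overexpressing cells on days 4 and 7 in a medium with fetal bovine serum. The labels name a single knockout line and no further wild-type line, so genotype and line cannot be told apart, and each condition has 1 library a day.

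Tet3 encodes a dioxygenase that oxidises 5-methylcytosine, a step on the way to removing methylation from DNA, and acts mainly where a C is followed by a G (CpG). Cells of the early embryo choose between a neural fate, which needs low BMP, Nodal and Wnt activity, and mesoderm or endoderm, which form in the primitive streak. Within the neural plate, Wnt, FGF and retinoic acid set position: Otx and Engrailed genes mark forebrain and midbrain, and Hox genes mark hindbrain and spinal cord. The comparison asks which of these programmes differ when Tet3 is missing.

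Tet3 itself read 8.11 RPKM in the wild-type library and 6.59 RPKM in the knockout library, a difference of -0.28, and on day 10 the values were 10.2 and 14.3 RPKM. A value for the whole gene does not check the loss of 1 exon, so the genotype rests on the labels. Reads per library, estimated from the steps between low RPKM values, were 10100000 for wild type and 10200000 for the knockout on day 6, 10600000 to 11300000 for 3 other SFEB libraries and 36600000 for the knockout with Dkk on day 10. The 4 serum libraries had 17300000 to 44000000 reads. With 1 library a side no test was possible. The 95% counting intervals given below are of the log2 ratio of estimated reads, without the added 0.5 RPKM, and cover counting error only. Reads of a gene were estimated with the median length of its GENCODE transcripts. The length behind the deposited RPKM is not known, so the width of an interval, and whether it holds no change, is approximate.

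The labelled neuroectoderm was checked against defining markers. All 7 neural progenitor markers (Sox1, Sox2, Sox3, Pax6, Nes, Zic1 and Pou3f2) reached 1 RPKM in both libraries, with summed levels of 235.4 RPKM in wild type and 184.7 RPKM in the knockout. The 5 neuron markers summed to 165.5 and 75.2 RPKM. Both libraries therefore carried neural RNA. Somite markers (Meox1, Tcf15, Foxc2 and Pax1) summed to 0.56 RPKM in wild type, with 0 of 4 at 1 RPKM, and to 230.8 RPKM in the knockout, with 4 of 4. Primitive streak markers went from a sum of 4.73 to 42.6 RPKM, heart markers from 2.58 to 15.6 RPKM and endoderm markers from 6.91 to 18.2 RPKM. In the knockout brachyury (T) made up 37.2 RPKM of the streak sum and Actc1 10.2 RPKM of the heart sum. Mixl1 (0.38 RPKM) and Nkx2-5 (0.51 RPKM) stayed under 1 RPKM there. Of the endoderm markers, Sox17 and Foxa2 were 2-fold higher, and Afp, Ttr and Apoa1 were not. Surface ectoderm markers summed to 22.15 and 92.18 RPKM, with only Krt8 at 1 RPKM, and ES cell markers to 39.4 and 38.4 RPKM. Pou5f1 alone gave 35.8 and 36.6 RPKM of the ES cell sums. Of the 4 ES cell markers, 3 reached 1 RPKM in the wild-type library and 1 did so in the knockout library. Esrrb (2.12 and 0.88 RPKM) and Zfp42 (1.2 and 0.54 RPKM) passed below that level, though within 2-fold. Nanog was under it on each side (0.29 and 0.43 RPKM). Neural crest markers summed to 0.52 and 0.28 RPKM and trophoblast markers to 0.11 and 0.04 RPKM, so both were near 0 on each side. In these bulk libraries fewer cells of a type and less RNA per cell cannot be told apart.

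Of the genes compared, 607 (5.24%) had a higher level in the knockout by 2-fold or more, and 262 (2.26%) a lower one. The median difference of all genes compared was 0.00, with quartiles of -0.20 and 0.22. Larger differences leaned further to the higher side: 187 genes were higher and 45 lower by 2 or more on the log2 scale, and 60 higher and 6 lower by 3 or more. Of the 607 higher genes, 327 were under 1 RPKM in wild type, and their median level was 0.83 RPKM in wild type and 4.54 RPKM in the knockout. The lower genes had a median of 4.45 RPKM in wild type and 1.25 RPKM in the knockout, and 110 of them were under 1 RPKM in the knockout. The counting interval left out no change for 560 of the higher genes (4.83% of genes compared) and 214 of the lower genes (1.85%). Just outside the threshold, 375 genes had a difference between 0.8 and 1 in size, and just inside it 209 genes had one between 1 and 1.2.

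**Figure D1:**
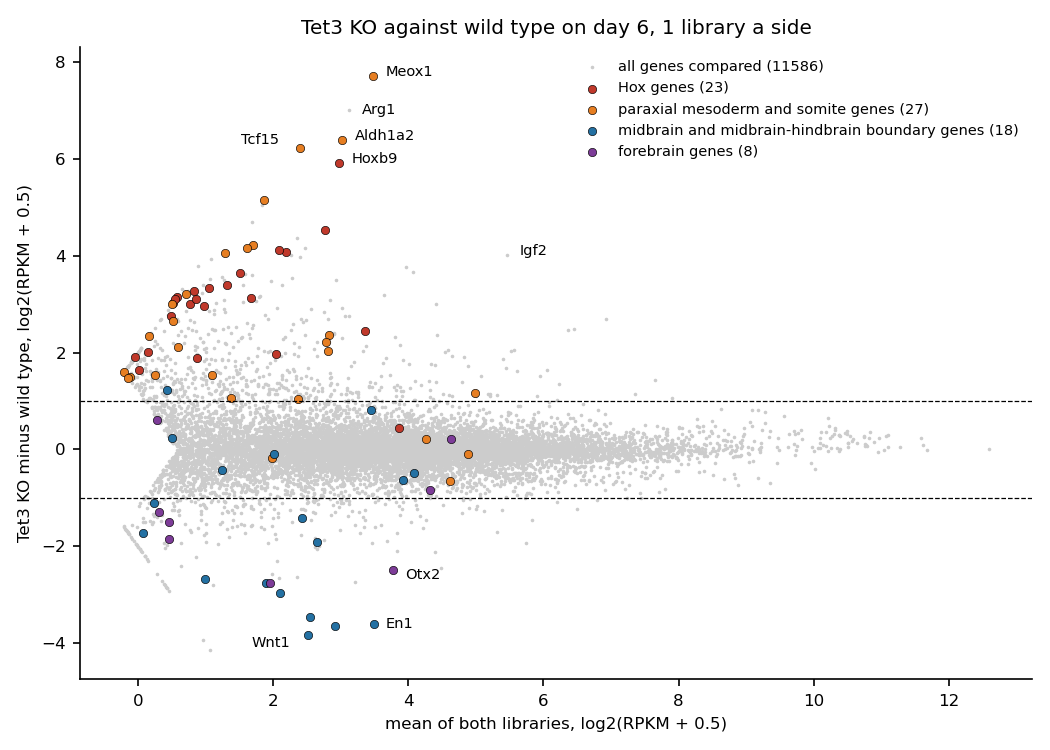
Each point is 1 of 11586 genes, with its mean over both day 6 libraries on the x axis and its knockout minus wild-type difference on the y axis, both as log2(RPKM + 0.5). Dashed lines mark 2-fold, and Hox and somite genes lie mostly above the upper line while midbrain and forebrain genes lie mostly below the lower one.

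The day 10 pair of wild type and knockout shares no library with the day 6 pair. On day 10, 1055 of 12445 genes compared were higher (8.48%) and 246 lower (1.98%). Of the 607 genes higher on day 6, 255 were higher again on day 10, 222 were within 2-fold, 24 were lower and 106 stayed under 1 RPKM in both libraries. Of the 262 genes lower on day 6, 42 were lower on day 10, 177 were within 2-fold, 12 were higher and 31 fell under the filter. Fewer than 1 gene in 2 of either group thus met the same call on the later day.

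Promoters are shown for 6 genes, 3 that were lower (Wnt1, En1 and Dmbx1, all regulators of the midbrain) and 3 that were higher (Aldh1a2, Hoxb4 and T). No RefSeq promoter was found for Meox1, Tcf15, Hoxb9 and Arg1, among others, so the 6 are not the genes with the largest differences. The windows printed are the 250 bases before the RefSeq start site in GRCm38.p6, on the strand of the gene. Each CpG, the pair of bases at which Tet3 mainly acts, is in capitals. Wnt1 (chr15:98789607-98789856, plus strand) held 23 CpG, En1 (chr1:120602237-120602486, plus) 19 and Dmbx1 (chr4:115939927-115940176, minus) 23. Aldh1a2 (chr9:71215539-71215788, plus) held 40, Hoxb4 (chr11:96318017-96318266, plus) 14 and T (chr17:8434173-8434422, plus) 14.
Wnt1: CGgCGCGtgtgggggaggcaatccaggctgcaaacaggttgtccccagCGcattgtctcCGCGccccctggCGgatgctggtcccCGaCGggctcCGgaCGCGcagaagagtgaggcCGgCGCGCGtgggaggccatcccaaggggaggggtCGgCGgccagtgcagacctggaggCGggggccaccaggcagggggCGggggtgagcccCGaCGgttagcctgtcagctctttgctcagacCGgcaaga
En1: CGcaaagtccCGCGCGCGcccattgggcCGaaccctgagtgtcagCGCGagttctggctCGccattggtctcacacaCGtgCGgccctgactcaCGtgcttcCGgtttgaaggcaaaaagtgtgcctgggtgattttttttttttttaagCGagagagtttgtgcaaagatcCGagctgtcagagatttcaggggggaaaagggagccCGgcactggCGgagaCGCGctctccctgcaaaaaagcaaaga
Dmbx1: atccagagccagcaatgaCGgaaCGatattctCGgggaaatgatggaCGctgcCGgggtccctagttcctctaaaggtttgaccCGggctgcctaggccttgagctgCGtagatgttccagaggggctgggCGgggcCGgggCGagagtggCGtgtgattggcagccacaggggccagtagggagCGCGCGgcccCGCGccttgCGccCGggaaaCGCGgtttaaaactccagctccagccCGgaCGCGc
Aldh1a2: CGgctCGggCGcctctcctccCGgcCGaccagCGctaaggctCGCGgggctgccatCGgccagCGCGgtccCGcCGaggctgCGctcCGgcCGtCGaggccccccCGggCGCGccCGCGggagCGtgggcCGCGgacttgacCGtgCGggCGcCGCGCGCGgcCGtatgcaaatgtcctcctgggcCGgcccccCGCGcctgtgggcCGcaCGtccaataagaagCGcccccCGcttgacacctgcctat
Hoxb4: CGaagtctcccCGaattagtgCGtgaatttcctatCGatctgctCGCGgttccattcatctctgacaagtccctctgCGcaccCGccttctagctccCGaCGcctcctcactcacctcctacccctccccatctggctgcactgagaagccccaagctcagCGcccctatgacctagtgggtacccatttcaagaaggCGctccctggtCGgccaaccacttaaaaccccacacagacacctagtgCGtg
T: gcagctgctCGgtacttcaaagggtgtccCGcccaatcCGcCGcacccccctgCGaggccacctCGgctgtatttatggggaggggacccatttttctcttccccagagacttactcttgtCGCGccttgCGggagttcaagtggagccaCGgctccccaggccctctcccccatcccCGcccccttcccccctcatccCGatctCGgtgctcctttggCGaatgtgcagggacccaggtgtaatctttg
The 6 windows thus held from 14 to 40 CpG each. CpG counts of other promoters were not taken, so these describe the 6 windows only, and no methylation was measured here. The letters TTTATGG, bound by Cdx factors, occurred once in the T window at base 73 of the printed strand, and in 2.45% of 27025 RefSeq promoters of this length when both strands were searched. AGGTCA, a site of retinoid receptors, occurred in the Hoxb4 window on the opposite strand (read there as TGACCT from base 170) and in 13.8% of promoters. CTTTGAT, bound by TCF/LEF factors of the Wnt pathway, was in none of the 6 windows and in 3.23% of promoters, and TAATCC, bound by Otx factors, in none of the 6 and in 6.38%. These motifs share no overlap in the windows shown, and a match is a description of letters only.

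Hox genes, which give cells their position along hindbrain, spinal cord and trunk, had the highest median difference of the 38 gene lists examined. Of 39 Hox genes, 22 were higher in the knockout, 1 was within 2-fold, 0 were lower, and 16 stayed under 1 RPKM in both libraries. The median difference of the 23 compared was 3.10. Genes that passed the filter through the knockout library alone had to differ to some degree, so this count and those of the lists below describe the members and do not support a claim about them. The summed level of all Hox genes was 23.1 RPKM in wild type and 252.7 RPKM in the knockout.

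Hoxb9 had the highest level, at 0.51 RPKM in the wild-type library and 60.7 RPKM in the knockout library, a difference of 5.92 (95% counting interval of the read ratio 6.14 to 7.91). Hoxb1, a regulator of hindbrain segments, read 0.61 and 18.2 RPKM. Hoxb8, of the trunk, read 0.52 and 17.3 RPKM. An anterior gene and trunk genes were therefore high in the same library. By paralog group, 11 of 12 genes of groups 1 to 4 were higher, with sums of 20.5 RPKM in wild type and 134.0 RPKM in the knockout. In groups 5 to 9, 11 of 15 genes were compared and 11 were higher, with sums of 2.16 and 118.1 RPKM. In groups 10 to 13, the genes of the lower trunk and tail, 0 of 12 reached 1 RPKM, and the highest value was 0.22 RPKM in wild type and 0.28 RPKM in the knockout. No cluster thus had a gene past group 9 at the filter.

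The 1 Hox gene within 2-fold was Hoxa2, which marks the hindbrain and was the highest Hox gene of the wild-type library, at 11.9 RPKM against 16.5 RPKM in the knockout (difference 0.45). All 9 genes from Hoxb9 to Hoxb1 were higher, as neighbours on chromosome 11, with a cluster sum of 6.55 RPKM in wild type and 149.9 RPKM in the knockout. The Hoxa sum was 15.6 and 72.1 RPKM, the Hoxc sum 0.63 and 16.8 RPKM and the Hoxd sum 0.31 and 14.0 RPKM. Hoxa and Hoxb thus carried most Hox RNA of the knockout. The noncoding gene 2700086A05Rik, which lies among the Hoxa genes, read 0.12 and 20.04 RPKM.

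On day 10 groups 5 to 9 summed to 3.94 RPKM in wild type and 372.7 RPKM in the knockout, and groups 1 to 4 to 39.5 and 163.8 RPKM. Both sums of the knockout were above their day 6 values. Hoxb1 was at 1.06 RPKM in the day 10 knockout, against 18.2 RPKM on day 6, whereas Hoxb4 was at 17.7 RPKM, against 7.58 RPKM. Hoxb6 stood at 6.07 RPKM on day 6 and 46.6 RPKM on day 10, and Hoxc6 at 4.86 and 42.9 RPKM. In the day 6 knockout given Dkk, a secreted inhibitor of Wnt signalling, Hoxb9 read 0.10 RPKM and Hoxb1 0.36 RPKM, each below the untreated wild type.

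**Figure D2:**
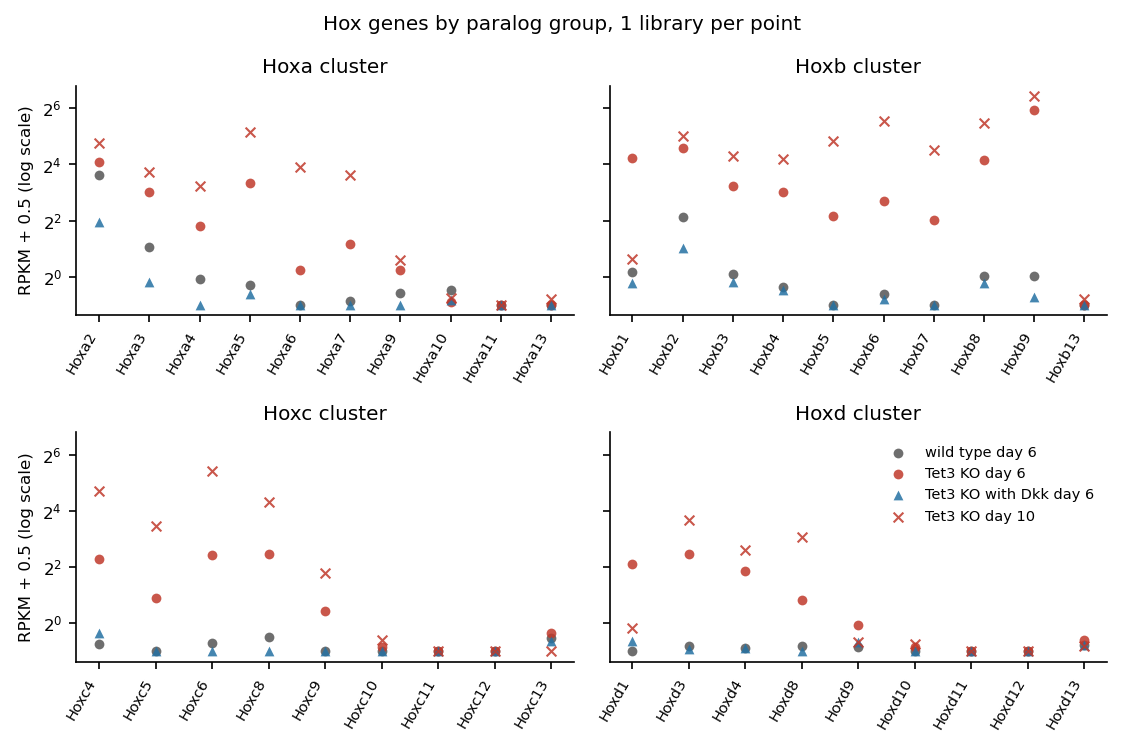
Each panel is 1 Hox cluster with genes shown ordered by paralog group on the x axis and RPKM + 0.5 on a log2 axis, and each mark is 1 library. The day 6 knockout lies above wild type for groups 1 to 9, and all marks of groups 10 to 13 lie near the floor of 0.5.

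Cdx genes, which switch on trunk Hox genes and are themselves targets of Wnt, were listed at 0 or low in wild type. Cdx2 read 0.82 RPKM in the wild-type library and 20.4 RPKM in the knockout library, a difference of 3.98 (interval 3.96 to 5.36). Cdx1 was listed at 0 in wild type and at 6.41 RPKM in the knockout, and Cdx4 at 0 and 2.67 RPKM. On day 10 Cdx2 was at 1.89 RPKM in wild type and 0.34 RPKM in the knockout, and Cdx1 and Cdx4 were at or near 0 in both. Of the Hox cofactors, Meis1 (14.9 and 28.8 RPKM, difference 0.92) and Meis2 (24.4 and 43.5 RPKM, 0.82) were below the 2-fold line, and Pbx4 was lower (8.07 and 3.09 RPKM, -1.26).

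Retinoic acid is made from vitamin A, drives anterior Hox genes and helps somites to form. Of 17 pathway genes compared, 8 were higher and 0 lower, with a median difference of 0.82. Aldh1a2, the enzyme that makes retinoic acid in the early trunk, read 0.39 RPKM in wild type and 74.2 RPKM in the knockout, a difference of 6.39 (interval 6.63 to 8.69). Stra6, the receptor that takes up vitamin A, read 2.26 and 17.5 RPKM. The supply genes Rdh10 (7.55 and 9.82 RPKM, 0.36) and Rbp4 (3.25 and 3.36 RPKM, 0.04) were within 2-fold. Of the receptors, Rarb, itself a direct target of retinoic acid, read 1.73 and 13.7 RPKM (2.67), Rarg 2.13 and 7.65 RPKM (1.63) and Rara 5.02 and 12.8 RPKM (1.26). The 3 RXR genes were within 2-fold, with Rxra at 20.4 and 18.8 RPKM. The degrading enzyme Cyp26a1, a target too, was higher (2.20 and 7.71 RPKM, 1.60), and Cyp26b1 was within 2-fold (13.1 and 14.98 RPKM). The binding protein Crabp1 had the highest level of the list, at 408.0 and 718.2 RPKM, a difference of 0.82. In the knockout with Dkk on day 6 Aldh1a2 was at 1.41 RPKM and Rarb at 1.05 RPKM.

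Genes of the paraxial mesoderm, which forms the somites, included the highest single difference of the comparison. Of 27 compared, 23 were higher and 0 lower, with a median difference of 2.11. Meox1, a homeobox gene of newly formed somites, read 0.27 RPKM in the wild-type library (6 estimated reads) and 161.6 RPKM in the knockout library (3672 reads), a difference of 7.72 (interval 8.12 to 10.7). Tcf15, needed for somites to become epithelial, read 0.11 and 44.9 RPKM, Foxc2 0.11 and 21.3 RPKM and Foxc1 0.25 and 13.6 RPKM. These genes had almost no reads in wild type. Genes of earlier presomitic stages were present at lower levels: Tbx6 read 0.23 and 2.65 RPKM, the clock gene Hes7 0 and 3.51 RPKM and Mesp2 0.05 and 1.05 RPKM. Of genes of later somite fates, the sclerotome gene Pax1 read 0.07 and 3.08 RPKM, Myf5 of early muscle was at 0 and 0.42 RPKM and Myod1 was listed at 0 in both. Within 2-fold were Cdh11, Dll1, Ebf1 and Lfng, the last with a difference of -0.64. Dmrt2, which also acts in the somite, was among the 15 genes with the largest differences, at 0.13 and 15.9 RPKM.

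The day 10 values of these genes went different ways. Meox1 had 4.22 RPKM in the day 10 knockout and 0.60 RPKM in the day 10 wild type, and Tcf15 1.08 and 0.19 RPKM. Aldh1a2 stood at 77.7 RPKM in the day 10 knockout, close to its 74.2 RPKM on day 6. With Dkk on day 6 Meox1 was at 1.44 RPKM, Tcf15 at 0.81 RPKM and Foxc2 at 0.34 RPKM, each above the wild-type value of the same day.

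**Figure D3:**
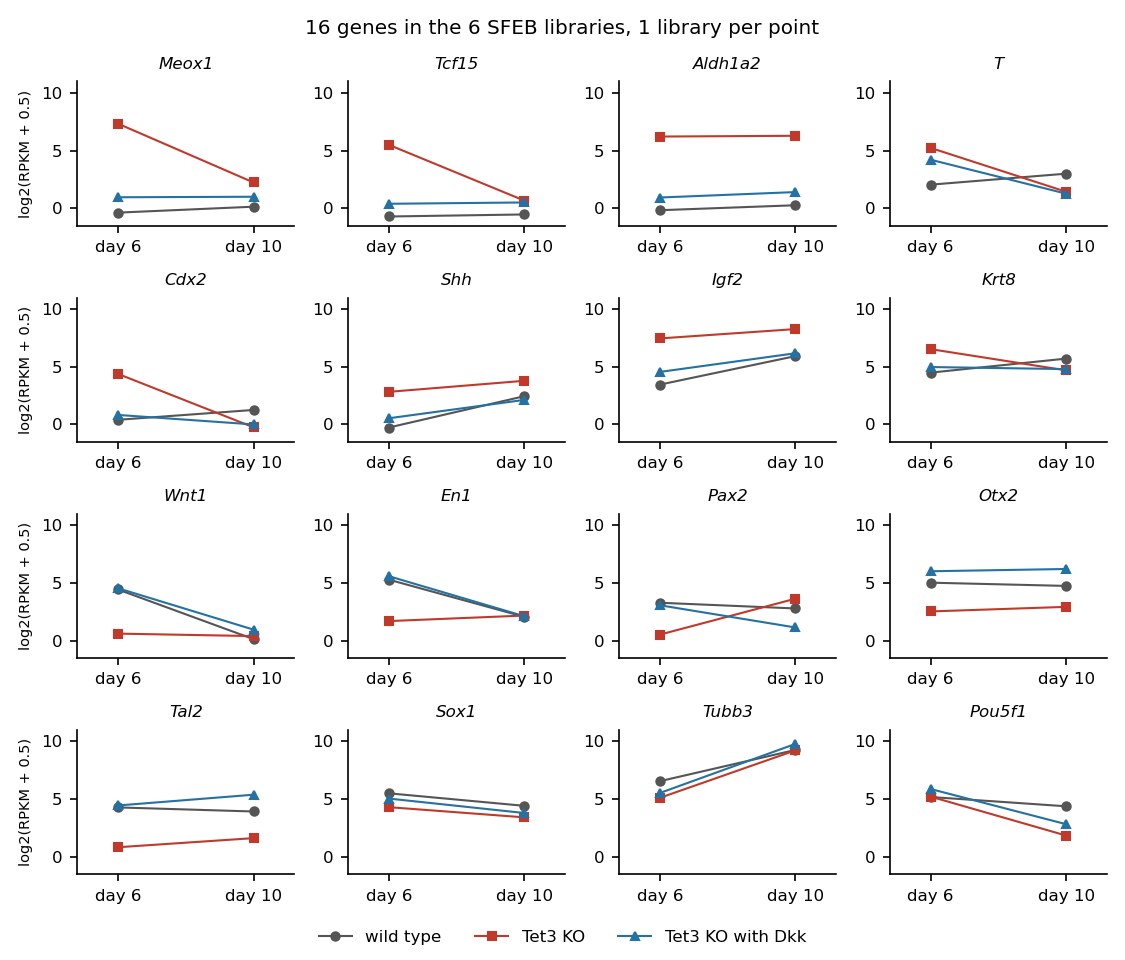
Each panel is 1 of 16 genes with log2(RPKM + 0.5) on the y axis and day 6 and day 10 on the x axis, and each mark is 1 of the 6 SFEB libraries. Meox1 and Tcf15 are high in the day 6 knockout and low on day 10, Aldh1a2 is high in the knockout on both days, and Wnt1 and En1 are low in the day 6 knockout alone among the day 6 libraries.

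Primitive streak genes mark the cells that become mesoderm and endoderm. Of 17 compared, 9 were higher and 0 lower, with a median of 1.49, or 0.79 over all members with no filter. Brachyury (T), the defining streak and notochord gene, read 3.64 RPKM in wild type and 37.2 RPKM in the knockout, a difference of 3.19 (interval 2.79 to 3.97). Nkx1-2, which marks the stem zone of the tail end, read 1.59 and 13.1 RPKM, and Cer1, a secreted inhibitor of Nodal and BMP, 0.22 and 12.4 RPKM. Genes of the earliest streak did not follow to the same extent: Mixl1 was under 1 RPKM in both libraries (0.30 and 0.38 RPKM), Eomes had a difference of 0.81 and Nodal 1.59 and 1.94 RPKM (0.22). The streak ligands Wnt3 (1.67 and 1.52 RPKM) and Fgf8 (19.5 and 13.9 RPKM) were within 2-fold.

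Of 16 lateral mesoderm and heart genes compared, 12 were higher and 0 lower, with a median of 1.54, at low levels. The troponin gene Tnni1 read 0.18 RPKM in wild type and 3.82 RPKM in the knockout, the actin gene Actc1 1.83 and 10.2 RPKM and Gata6, of heart and endoderm, 0.40 and 4.18 RPKM. The heart regulator Nkx2-5 was listed at 0 in wild type and read 0.51 RPKM in the knockout, and Tbx5 had 0.02 and 0.05 RPKM, so both were under the filter. Of 8 intermediate mesoderm genes compared, 5 were higher and 2 lower: Osr1 was listed at 0 and 1.49 RPKM and Lhx1 read 1.39 and 7.17 RPKM, while Pax2 (9.23 and 0.93 RPKM) and Pax8 (1.24 and 0.31 RPKM) were lower. Pax2 and Pax8 also belong to the midbrain-hindbrain boundary. Of 7 endothelium and blood genes compared, with a median of 1.47 (0.49 over all members with no filter), 5 were higher, led by the VEGF receptor Kdr (0.41 and 4.58 RPKM, 2.48), and 1 was lower, the embryonic globin Hba-x (1.47 RPKM and listed at 0). The endothelial cadherin Cdh5 and Pecam1 stayed under 1 RPKM in both.

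Genes of the midbrain and its boundary with the hindbrain, the organiser that secretes Wnt1 and FGF8, had the lowest median of the 38 lists. Of 18 compared, 11 were lower and 1 was higher, with a median difference of -1.57. Wnt1 read 21.1 RPKM in the wild-type library (507 reads) and 1.02 RPKM in the knockout library (25 reads), a difference of -3.83 (interval -4.998 to -3.78). En1 read 38.5 and 2.73 RPKM (-3.59) and En2 26.2 and 1.64 RPKM (-3.64). These Engrailed genes are the classic markers of the region, and both were at over 20 RPKM in wild type. Pax5 read 11.4 and 1.04 RPKM, Pax2 9.23 and 0.93 RPKM and Tal2, of midbrain neurons, 18.9 and 1.27 RPKM. Dmbx1, of the midbrain, read 4.54 and 0.29 RPKM, Pax7 11.6 and 2.74 RPKM and Lmx1b 8.27 and 2.78 RPKM. On the other side, Lmx1a, of the roof plate and floor of the midbrain, was higher at 0.38 and 1.56 RPKM. Gbx2, which marks the hindbrain side of the boundary, read 7.74 and 14.1 RPKM (0.83), and Fgf8 and Fgf17 were within 2-fold. Of the 18 genes, 11 were therefore low in the knockout, while Gbx2, Lmx1a, Fgf8 and Fgf17 were not. A split by side of the boundary was not tested.

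On day 10 wild type itself had low levels of part of these genes. Wnt1 was at 0.59 RPKM in the day 10 wild type and 0.81 RPKM in the day 10 knockout, and En1 at 3.65 and 4.01 RPKM. Tal2 was still lower in the knockout on day 10, at 14.7 RPKM in wild type and 2.56 RPKM in the knockout. In the day 6 knockout with Dkk, Wnt1 read 22.8 RPKM, En1 47.5 RPKM, Pax2 7.87 RPKM and Tal2 21.3 RPKM, each nearer to wild type than the untreated knockout was.

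Of 8 forebrain genes compared, 5 were lower and 0 higher, with a median of -1.40, which is -0.12 over all members with no filter. Otx2, the head gene of forebrain and midbrain, read 32.0 RPKM in wild type and 5.27 RPKM in the knockout, a difference of -2.50 (interval -3.03 to -2.18), and its relative Otx1 read 9.63 and 0.99 RPKM (-2.77). Lhx5 (1.82 and 0.32 RPKM) and Fezf2 (1.44 and 0.29 RPKM), also of the forebrain, were low already in wild type. Sp8 missed 2-fold, at 26.3 and 14.5 RPKM.

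Of 11 hindbrain segment genes compared, 5 were higher, 3 of them Hox genes already counted above, 1 was lower and 5 were within 2-fold, with a median of 0.45. Among the higher were Hoxb1, given above, and Hoxb2 (3.91 and 23.6 RPKM). Egr2, which marks alternating segments, was at 1.12 and 1.63 RPKM (0.39). The lower member was Irx2, at 32.1 and 10.1 RPKM (-1.62).

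Across the neural tube from floor to roof, 8 of 18 genes compared were higher and 3 lower, with a median of 0.68. With a filter of 5 RPKM the median was 0.05. Among the higher were floor plate and ventral genes. Shh, the ventral signal, read 0.33 RPKM in wild type and 6.60 RPKM in the knockout. Nkx6-1 read 2.02 and 10.4 RPKM and Olig2, of motor neuron progenitors, 0.72 and 2.58 RPKM, and Foxa2 had a difference of 2.30. The roof plate gene Lmx1a was higher too, with a difference of 1.23. The lower members were Pax7, Gsx1 (3.15 and 0.60 RPKM) and Irx5 (25.3 and 11.2 RPKM), of which the first and second mark dorsal progenitors. The dorsal and intermediate genes Pax3 (10.9 and 11.3 RPKM), Irx3 (31.4 and 32.1 RPKM) and Pax6 (21.6 and 33.1 RPKM) were within 2-fold. The Dbx1 level, the highest of the list, was 52.9 and 31.3 RPKM (-0.75).

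Of 23 general neural progenitor genes compared, 4 were lower, 0 were higher and 19 were within 2-fold, with a median of -0.51. Sox1, the most specific marker of neuroectoderm among them, read 44.8 RPKM in wild type and 19.2 RPKM in the knockout, a difference of -1.20 (interval -1.33 to -1.11). Fabp7, of radial glia, read 137.5 and 58.8 RPKM (-1.22), Sox21 48.7 and 20.6 RPKM (-1.22) and Pou3f3 16.6 and 5.68 RPKM (-1.46). Sox2 (40.8 and 41.4 RPKM), Sox3 (50.6 and 44.1 RPKM) and Cdh2 (111.2 and 95.6 RPKM) were close on both sides, and Nes read 57.3 and 35.6 RPKM (-0.68). The lower members were thus a minority of the list.

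Of 26 neuron genes compared, 4 were higher and 3 lower, with a median of -0.56, and with TPM scaling or a pseudocount of 0.1 the counts were 4 higher and 6 lower. The tubulin gene Tubb3 had the highest level and read 93.4 RPKM in wild type and 34.0 RPKM in the knockout (-1.45), the intermediate filament gene Ina 20.02 and 9.16 RPKM (-1.09) and Nhlh1 4.09 and 1.79 RPKM. The higher members were Lhx1 (1.39 and 7.17 RPKM), Ncam1 (4.00 and 11.2 RPKM), Neurog2 (0.44 and 1.96 RPKM) and Isl1 (0.47 and 1.76 RPKM), of which Lhx1 and Isl1 are also expressed in mesoderm. The sums of somite, streak and heart markers given above were higher in the knockout, where the sums of neural markers were lower. The part of mesoderm in these neural differences was not tested.

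**Figure D4:**
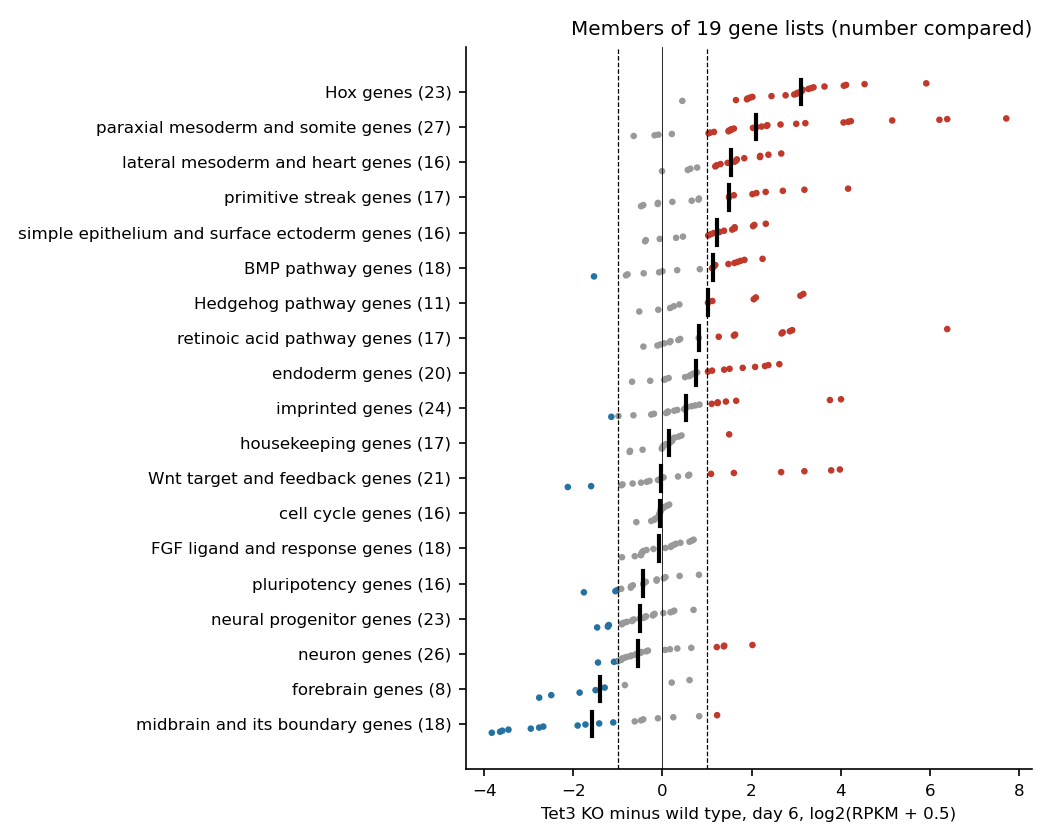
Each point is the day 6 difference of 1 compared member of a gene list, in log2(RPKM + 0.5), black bars are list medians and dashed lines mark 2-fold. The medians run from 3.10 for Hox genes to -1.57 for genes of the midbrain and its boundary, with cell cycle genes at -0.06.

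Wnt signalling was split by role. Of 11 Wnt ligand genes compared, 2 were higher and 3 lower, with a median of -0.37. Wnt16 was listed at 0 in wild type and at 2.73 RPKM in the knockout, and Wnt8a, a ligand of the streak, read 1.16 and 6.56 RPKM (2.09). The lower ligands were Wnt1, Wnt7b (6.12 and 2.17 RPKM) and Wnt8b (2.32 and 0.77 RPKM), which are expressed in the brain. The streak ligand Wnt3a stayed under 1 RPKM, at 0.57 and 0.91 RPKM. Of 20 receptor and R-spondin genes compared, 4 were higher and 2 lower, and R-spondins, which amplify Wnt signals, were on both sides: Rspo3 read 1.55 and 10.8 RPKM (2.46), while Rspo2 read 5.19 and 0.32 RPKM (-2.79) and Rspo1 3.95 and 1.53 RPKM (-1.13). The receptors Fzd2 (26.3 and 58.0 RPKM), Fzd4 (1.09 and 3.96 RPKM) and Ror2 (9.27 and 21.95 RPKM) were higher.

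Among 21 Wnt target and feedback genes compared, 6 were higher and 2 lower, with a median of -0.03. The higher targets were Cdx1, Cdx2, Cdx4, T, Msgn1 (listed at 0 and 1.02 RPKM) and Myc (13.2 and 28.7 RPKM), and the first 5 of these are genes of the streak and tail. The lower members were Apcdd1 (43.4 and 9.57 RPKM, -2.12) and Nkd1 (19.4 and 6.07 RPKM, -1.60), which both dampen the pathway. Other genes that dampen it were within 2-fold. Their differences were -0.67 for Notum, -0.29 for Dkk1, -0.05 for Nkd2, -0.03 for Znrf3 and 0.35 for Kremen1. Axin2, a feedback inhibitor often used as a readout of the pathway, was also within 2-fold, at 19.9 and 10.3 RPKM (-0.92, interval -1.30 to -0.61). Lef1 (13.7 and 21.1 RPKM, 0.60) and Sp5 (3.69 and 3.41 RPKM, -0.10) were within 2-fold. Common readouts of the pathway were therefore not on 1 side. On day 10 Axin2 was at 4.52 RPKM in wild type and 10.1 RPKM in the knockout, and in the day 6 knockout with Dkk at 32.7 RPKM.

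Of 9 secreted Wnt antagonist genes compared, 3 were higher and 0 lower. These were Sfrp5 (0.10 and 5.85 RPKM), Dkk3 (0.47 and 2.02 RPKM) and Cer1, a list member given above as an inhibitor of Nodal and BMP. The antagonists with the highest levels were close on both sides, Sfrp2 at 95.5 and 95.5 RPKM and Sfrp1 at 65.3 and 60.2 RPKM. Sfrp4 stayed under the filter, at 0.28 RPKM in wild type and 0.06 RPKM in the knockout. Dkk1, at 2.54 and 1.99 RPKM, was within 2-fold.

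Of 18 BMP pathway genes compared, 10 were higher and 1 lower, with a median of 1.13. The ligands Bmp2 (0.23 and 1.96 RPKM), Bmp4 (0.25 and 1.80 RPKM), Bmp5 (0.43 and 2.49 RPKM) and Bmp7 (5.73 and 13.7 RPKM) were higher, and so were their extracellular inhibitors Chrd (0.78 and 5.58 RPKM), Nog (0.76 and 3.02 RPKM) and Fst (20.7 and 46.9 RPKM). The target Id1 read 7.52 and 28.2 RPKM (1.84), whereas Id2 (49.6 and 49.7 RPKM) and Id3 (59.6 and 75.1 RPKM), targets with higher levels, were within 2-fold. Bmp6 was lower (2.92 and 0.68 RPKM). The targets Id4 (-0.82), Msx1 (-0.78) and Msx2 (-0.42) were within 2-fold too, on the lower side. The listed ligands other than Bmp6, and the inhibitors Chrd, Nog and Fst, were thus present at higher levels. The inhibitor Bmper was within 2-fold (0.84), and Grem1 was under the filter at 0.24 RPKM in both libraries. Targets lay on both sides, with Id1 furthest from no change. Of the 10 higher genes, 9 had a counting interval above no change.

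Of 11 Hedgehog pathway genes compared, 6 were higher and 0 lower. Besides Shh these included the targets Gli1 (0.67 and 9.98 RPKM, 3.16) and Ptch1 (11.3 and 48.3 RPKM, 2.05, interval 1.87 to 2.33), Ihh (0.76 and 2.06 RPKM) and the co-receptor Gas1 (15.98 and 35.3 RPKM). Ptch1 and Gli1 are the standard readouts of the pathway, and both were on the same side as the ligand. The signal transducer Smo (59.3 and 55.5 RPKM) and Gli3 (25.6 and 17.7 RPKM) were within 2-fold. On day 10 Shh was at 4.98 RPKM in wild type and 13.3 RPKM in the knockout, and Ptch1 at 17.5 and 31.5 RPKM.

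Of 18 FGF ligand and response genes compared, 0 were higher and 0 lower, with Spry2 the furthest from 0 at 73.4 and 38.9 RPKM (-0.91). Of 11 Nodal pathway genes, 3 were higher, among them Cer1 and Foxh1 (8.51 and 22.3 RPKM), and Gdf3 was lower (1.07 and 0.28 RPKM). Of 17 Notch pathway genes, Hes7, Heyl (0.13 and 2.11 RPKM) and Dll3 (2.99 and 13.8 RPKM) were higher and Jag1 (21.4 and 9.28 RPKM) lower, while the neural target Hes5 read 45.4 and 23.9 RPKM (-0.91). Hes7 and Dll3 belong to the segmentation clock of the somite.

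**Figure D5:**
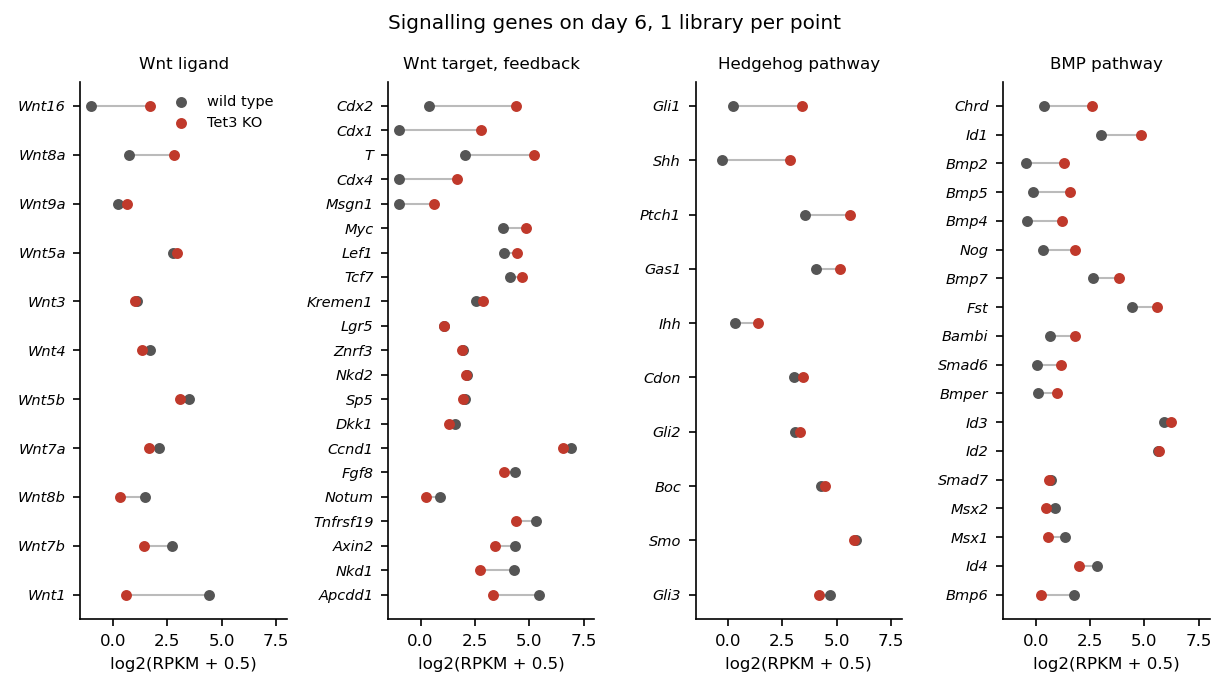
Each row is 1 of the compared genes shown, with its level as log2(RPKM + 0.5) on the x axis in the wild-type library (grey) and the knockout library (red) on day 6. Hedgehog and BMP genes lie mostly to the right in the knockout, while Wnt ligands and Wnt targets are spread to both sides.

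Of 20 endoderm genes compared, 9 were higher and 0 lower, with a median of 0.74. Foxa1 read 0.22 RPKM in wild type and 3.94 RPKM in the knockout and Sox17 1.22 and 5.50 RPKM, and Foxa2 is shared with the floor plate. Of genes of yolk sac and later liver, Spink3 (16.7 and 44.5 RPKM, 1.39) and Cubn (1.25 and 3.29 RPKM, 1.11) were higher, while Afp (0.99 and 1.07 RPKM) and Ttr (2.49 and 4.12 RPKM) were within 2-fold. Of 16 genes of simple epithelium and surface ectoderm compared, 11 were higher and 0 lower, with a median of 1.22. The keratin genes Krt8 (22.1 and 91.9 RPKM, 2.03) and Krt18 (22.7 and 96.3 RPKM, 2.06) and the tight junction gene Cldn6 (5.78 and 30.9 RPKM, 2.32) led, and the cadherin Cdh1 read 11.5 and 23.9 RPKM (1.03). Markers of stratified epidermis were near 0 in both, with Krt14 listed at 0 and Trp63 at 0.08 and 0.02 RPKM. The members that were higher are genes of simple epithelia, which several early tissues share.

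Of 15 genes of the epithelial-mesenchymal transition compared, 9 were higher, among them Snai1 (0.80 and 5.98 RPKM), Twist1 (2.70 and 14.5 RPKM) and Prrx2 (2.86 and 22.3 RPKM), which drive the mesenchymal state. Epcam and Cdh1, which mark the epithelial state, were higher as well. Vim, at 264.2 and 235.4 RPKM, and Cdh2 were within 2-fold. Of 12 matrix and stroma genes compared, 4 were higher, Vtn (0.67 and 12.6 RPKM), Col1a2 (1.41 and 7.33 RPKM), Fbln1 (23.8 and 77.2 RPKM) and Col3a1 (0.88 and 2.61 RPKM). On day 10 it was 20 of 21 compared. Of 11 neural crest genes, Ets1 (1.68 and 13.1 RPKM), Twist1 and Snai2 (0.34 and 1.83 RPKM) were higher, genes that mesoderm also expresses, and 1 was lower. The crest-defining genes Sox10 (0.04 and 0.04 RPKM) and Foxd3 (0.04 RPKM and listed at 0) were near 0.

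Of 16 pluripotency genes compared, 0 were higher and 3 lower, with a median of -0.43. Pou5f1, the gene that defines the ES cell state, read 35.8 RPKM in wild type and 36.6 RPKM in the knockout, a difference of 0.03 (interval -0.25 to 0.31), and Nanog was under 1 RPKM in both. The lower members were Dppa4 (3.13 and 0.57 RPKM), Dppa3 (2.99 and 1.18 RPKM) and Gdf3. On day 10, 13 of 18 compared were lower, with Pou5f1 at 20.3 RPKM (wild type) and 3.06 RPKM (knockout). The counting interval of Pou5f1 thus held no change on day 6, where its day 10 values were far apart.

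Of 16 genes of DNA methylation and its removal compared, Tet3 among them, 0 were past 2-fold. Tet1 read 2.74 and 2.94 RPKM and Tet2 0.93 and 1.04 RPKM, while Tdg, which cuts out oxidised cytosine, was listed under the filter at 0.15 and 0.09 RPKM. The methyltransferases Dnmt1 (97.2 and 94.9 RPKM), Dnmt3a (11.5 and 15.5 RPKM) and Dnmt3b (40.7 and 38.2 RPKM) were within 2-fold.

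Of 24 imprinted genes compared, expressed from 1 parental copy under control of DNA methylation, 7 were higher and 1 lower, with a median of 0.53. Igf2, a fetal growth factor, read 10.45 RPKM in wild type and 175.7 RPKM in the knockout, a difference of 4.01 (interval 3.78 to 4.38), and H19, the noncoding gene next to it, 3.74 and 57.0 RPKM (3.76). The antisense gene Igf2as in the same place read 0.55 and 4.43 RPKM, and the table does not say whether counting used the strand, so its reads cannot be told apart from those of Igf2. Igf2 and H19 are expressed from opposite parental copies, and both were higher. Mest read 122.6 and 330.2 RPKM (1.43), Dlk1 1.10 and 4.54 RPKM (1.66) and Cdkn1c 40.3 and 87.4 RPKM (1.11). The lower member was Magel2 (3.86 and 1.47 RPKM), and Peg12, its neighbour, missed 2-fold (46.6 and 23.3 RPKM, -0.99). Of the 20 germline genes that DNA methylation silences in other cells, 4 were compared and 2 were lower, Rhox6 (6.90 and 1.45 RPKM) and Rhox9 (4.00 and 0.66 RPKM).

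The cell cycle, stress, cholesterol, hypoxia and housekeeping lists, chosen as controls, had 0 or 1 members past 2-fold each. Of all genes compared, 5.24% were higher and 2.26% lower, and these lists are too small to be set below those shares. They were chosen with earlier results of these data known, so the counts describe their members only. Of 16 cell cycle genes compared, 0 were past 2-fold, with a median of -0.06 and Pcna at 576.6 and 484.6 RPKM. Of 12 stress and immediate early genes 0 were past 2-fold, and of 15 cholesterol synthesis genes 1 was lower, Mvd (106.3 and 49.9 RPKM). Of 14 hypoxia and glycolysis genes, Bnip3 was higher (7.30 and 15.97 RPKM). Of 17 housekeeping genes 1 was higher, Gusb (3.83 and 11.7 RPKM), and Gapdh read 603.7 and 364.6 RPKM (-0.73) and Actb 1417 and 1646 RPKM (0.22). Hmgcs1, an enzyme gene that every cell uses, was listed at 0 in both libraries, so a 0 in this table can be a missing value. Of 6 trophoblast genes compared 4 were higher, Cdx2, Gata3, Krt7 and Hand1, all of them also expressed in other early tissues, and the placental gene Prl3d1 was listed at 0 in both.

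Of the 15 genes with the largest positive differences, 5 were in no list: 2700086A05Rik and Dmrt2, given above, and 3 genes of other roles. Arg1, the arginine-degrading enzyme arginase, read 0.27 RPKM in wild type (2 reads) and 98.8 RPKM in the knockout (708 reads), a difference of 7.01, and was second only to Meox1. Aplnr, the apelin receptor of early mesoderm, read 0.63 and 22.7 RPKM, and Nepn, which encodes the matrix protein nephrocan, 0.81 and 23.0 RPKM. On day 10 Arg1 was at 0.77 RPKM in wild type and 11.4 RPKM in the knockout, and Aplnr at 2.39 and 1.03 RPKM.

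Neighbouring genes were called together in 11 runs of 3 or more genes higher and in 2 runs lower, among 11516 genes placed by RefSeq order. Hox clusters made up 4 of the higher runs. Others held Krt7, Krt8 and Krt18, keratins of simple epithelium on chromosome 15, the H19, Igf2 and Igf2as group on chromosome 7, and the forkhead genes Foxd2 and Foxe3 with 9130206I24Rik between them on chromosome 4. The lower runs were Cbln1 (12.3 and 2.69 RPKM), Gm2694 (12.2 and 1.56 RPKM) and Zfp423 (difference -1.04) on chromosome 8, and a group of 2 small nucleolar RNA genes with Shank1 on chromosome 7.

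The lower end of the ranking also held small RNA genes, 46 of the 262 lower genes, of which 2 had a counting interval that left out no change. The largest negative difference of all was Mir130b, a microRNA gene, at 8.36 RPKM in wild type (7 estimated reads) and listed at 0 in the knockout. Mir130a was at 3.06 RPKM (2 reads) and listed at 0. RefSeq (GRCm38.p6) gives their mature 3p forms, on the minus strand of chr16:17124071-17124092 and chr2:84741116-84741137, with a shared seed (bases 2 to 8, in capitals), which is why both are shown.
mmu-miR-130b-3p: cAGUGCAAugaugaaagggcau
mmu-miR-130a-3p: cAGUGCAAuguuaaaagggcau
With 7 and 2 reads behind them, these values are limited by depth, and a total RNA library does not separate the mature form from its precursor. On day 10 both genes were listed at 0 in wild type and in the knockout.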

How the data were processed

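Total RNA of mouse ES cells was sequenced as 10 SOLiD libraries, per the labels' protocols, and each library was mapped by its label. Values are RPKM to 2 decimals as the authors deposited them, and the submitters' processing notes name HTSeq and mm9. The sources used here give no aligner, annotation, strand setting or version, so values of close paralogs, overlapping and antisense genes are uncertain. The 2 day 6 libraries were compared as described in the report with Python 3.11.15, pandas 2.3.3, numpy 2.4.6 and scipy 1.17.1, with no test. Reads were estimated from whole multiples of the step that 1 read gives, with the median GENCODE transcript length of a gene, for 98.3% of symbols. In the SFEB libraries 68.5% to 79.1% of the low values used were whole to 0.15 read, and 20.8% to 36.2% were so at totals 15% away. The totals were chosen on these same values. Counting intervals are Clopper-Pearson intervals at 95%. The method was tested on data simulated with these same lengths, so errors of length were not tested. Of 672 gene names in 38 lists, 1 was not matched and 6 were matched by an older symbol. Members and lists were chosen with earlier results of these data known. Named genes are the 15 largest differences each way, list members (those past 2-fold first, then the highest level and the other side), Tet1, Tet2, Tet3, Tdg, Sfrp4, Pou5f1, Otx2, Igf2 and neighbours called together. RefSeq promoters covered 67.7% of higher and 60.7% of lower genes, so promoters were not compared between groups. Alternatives were other pseudocounts (0.1 and 1), filters (none and 5 RPKM), TPM scaling and median centring. Some genes are not reported here.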

Additional observations from a re-analysis of the deposited data

Results flagged for a closer look

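Among 515 list members and top-ranked genes, 9 were at least 2-fold to one side on day 6 and at least 2-fold to the other on day 10, in pairs of libraries that share none. The difference between the days was not tested, since each rests on 1 library a side and day. Genes of the primitive streak and of simple epithelium were among those higher in the knockout on day 6 and lower on day 10. Brachyury (T) had a difference of 3.19 on day 6 and -1.58 on day 10, where it read 7.52 RPKM in wild type and 2.19 RPKM in the knockout. For Cdx2 the differences were 3.98 and -1.51, for Krt8 2.03 and -1.03 and for Cdh1 1.03 and -1.36. Foxh1, a cofactor of Nodal signalling, had 1.34 and -1.38 and Phlda2, an imprinted gene, 1.24 and -1.06. Lmx1a had 1.23 and -1.89, with a wild-type level of 0.38 RPKM on day 6 and 13.6 RPKM on day 10. Pax8 went the other way, with -1.10 and 1.77, and so did Snora52 with -2.79 and 2.23, a small nucleolar RNA gene listed at 0 in 1 library of each day and resting on 4 estimated reads on day 6.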

How the results depend on the processing

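With a filter of 5 RPKM, which by its construction drops genes with low values, 289 genes were higher and 121 lower in the knockout, against 607 and 262. Under that filter the members counted as higher were 12 Hox, 12 paraxial mesoderm, 5 primitive streak, 1 lateral mesoderm and heart, 0 endothelium and blood, 3 endoderm, 3 dorsoventral neural tube and 2 neuron genes, and the members counted as lower were 2 forebrain and 0 pluripotency genes. The 3 lower pluripotency genes became 5 with a pseudocount of 0.1 and 1 with a pseudocount of 1. The median of Wnt ligand genes turned from -0.37 to 0.14 with no filter, which adds ligand genes under 1 RPKM in both libraries. Of the added ligand genes, all but Wnt10b (-0.34) had differences above 0, at these low levels. Under the other 7 alternatives the counts over all genes ran from 486 to 722 higher and from 192 to 376 lower. For neuron genes the leading direction turned, from 4 higher and 3 lower to 4 higher and 6 lower, under TPM scaling and under a pseudocount of 0.1. With no filter, which adds members at low values, medians came nearer to 0 for Hox (3.10 to 1.91), forebrain (-1.40 to -0.12), primitive streak (1.49 to 0.79), endothelium and blood (1.47 to 0.49) and intermediate mesoderm genes (1.42 to 0.72), and those of germline and trophoblast genes became 0. TPM scaling moved the median of all genes from 0.00 to -0.05. Requiring a counting interval that leaves out no change, and leaving out small RNA genes (run for the counts over all genes alone), were chosen after seeing the data. Genes at a few reads are limited by depth, and 44 higher genes were listed at 0 in wild type and 37 lower genes in the knockout. No paired analysis was possible because each condition has 1 library.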
